A study of Mus musculus with 20 samples.

Results

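Cd3e, Cd3d, Cd3g, Cd8a, Cd79a, Cd79b, Ms4a1 and Nkg7, genes that mark T, B and natural killer (NK) cells, were followed in TRAP–seq libraries of adipocytes from mouse epididymal adipose tissue (epiAT). They were the 8 rows, of 46078 in the gene count table, whose Ensembl identifiers map to these symbols. All 8 passed the filter on low counts, which left 21464 genes for testing. The mice carried AdipoERCre, a tamoxifen-inducible Cre recombinase driven in adipocytes, and the NuTRAP reporter, which puts GFP on the ribosomes of recombined cells, and all groups received tamoxifen before the diets began. GFP-tagged ribosomes were pulled down from frozen epiAT and their RNA was sequenced, so a lymphocyte would carry the tag only if Cre had acted in it. Libraries of the whole lysate or of a mock pull-down were not analysed here.

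The short arm held chow-fed mice of 18 weeks (C), mice of 18 weeks after 12 weeks of high-fat diet (HFD; H), chow-fed mice of 26 weeks (CC_s) and mice of 26 weeks that had 12 weeks of HFD followed by weight loss (WL) over 8 weeks on chow (HC), with 3 mice in each group. The long arm held chow-fed mice of 31 weeks (CC_l), mice of 31 weeks after 25 weeks of HFD (HH), chow-fed mice of 39 weeks (CCC) and mice of 39 weeks that had 25 weeks of HFD and then 8 weeks of chow (HHC), with 2 mice in each. By the study's methods the chow given alongside HFD was a low-fat diet and that of the WL period a standard chow, so C and CC_l differ from CC_s and CCC in chow as well as in age. Each obese or WL group was compared with the chow group of its own age, and the questions were whether transcripts of lymphocyte genes in the adipocyte pull-down differed with HFD and whether a difference remained after WL.

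T cells recognise antigen through a receptor whose CD3 chains carry the signal into the cell, and CD8 helps the receptor of cytotoxic T cells to bind its target. B cells signal through the paired CD79 chains that accompany membrane immunoglobulin, and NK cells and cytotoxic T cells kill through granules. Adipose tissue of obese animals is known for an accumulation of macrophages together with T and B cells, whereas adipocytes themselves are not known to use antigen receptors.

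The CD3 genes lie side by side on chromosome 9, within 40056 bases of the GRCm38 (mm10) assembly. Cd3g (chr9:44969572-44980431, minus strand) and Cd3d (chr9:44981786-44987339, plus strand) are transcribed away from each other from starts 1355 bases apart. The sequences of 250 bases upstream of both starts, from RefSeq on GRCm38.p6, are shown because Cd3g was the one member that passed the test after WL while its neighbour Cd3d did not. Each is written 5′ to 3′ on its gene's strand, at chr9:44980432-44980681 for Cd3g and chr9:44981536-44981785 for Cd3d, and the capitals mark CACCTG, an E-box that was searched on both strands and chosen after the sequences were seen.
Cd3g: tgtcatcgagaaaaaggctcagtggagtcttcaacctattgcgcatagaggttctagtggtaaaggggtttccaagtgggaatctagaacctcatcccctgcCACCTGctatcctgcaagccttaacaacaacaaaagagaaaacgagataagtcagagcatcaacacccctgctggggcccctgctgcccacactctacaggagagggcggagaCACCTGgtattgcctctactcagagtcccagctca
Cd3d: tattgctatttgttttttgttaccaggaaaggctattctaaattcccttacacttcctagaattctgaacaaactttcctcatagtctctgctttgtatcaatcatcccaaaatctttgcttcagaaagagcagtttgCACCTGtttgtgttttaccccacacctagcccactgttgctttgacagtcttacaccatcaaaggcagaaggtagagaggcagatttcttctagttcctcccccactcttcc
Cd3g held 2 matches and Cd3d 1 match, and 17.2% of 32851 RefSeq windows of this length held at least 1. The letters TGTGGT, found in 14.0% of windows and bound by RUNX factors, and CAGGAAG, found in 10.8% and bound by ETS factors, were in neither sequence on either strand. A match is only a run of letters and was not tied to any measured value.

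Depth ranged from 10710277 counts in HHC replicate 1 to 36738954 in HC replicate 1. Levels are given as CPM, read counts relative to the total of the library, on totals scaled by the trimmed mean of M values (TMM), and 3 counts corresponded to between 0.0815 and 0.251 CPM. Between 74.4% and 89.2% of the nonzero counts of a library were even numbers, and results were also computed on halved counts. Among nonzero counts up to 10 the share was 89.6% to 95.8%, so small counts may stand for fewer independent reads. Intervals and limits cover counting error only as far as counts are independent. The adipocyte list (Adipoq, Plin1 and 6 others) summed to between 12332 and 130748 CPM, with no gene of it at 0 in any group. Several libraries stood apart. C replicates 1 and 2, HC replicate 3 and CCC replicate 2 had the highest sums of the nuclear-retained RNAs Malat1, Neat1 and Kcnq1ot1, between 20337 and 37510 CPM against at most 12392 in the other 16, and the lowest adipocyte sums, at most 22301 CPM. CC_l replicate 1 held 3106 CPM of 5 spermatid genes, against 461 in HC replicate 3 and at most 114 elsewhere. C replicate 1 held 1814 CPM of 4 genes of the epididymal epithelium, against at most 289 in any other library. HHC replicate 1 was the shallowest library and the highest of all 20 for each of the 8 members.

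Among the chains of the T cell receptor complex, Cd3g carried the most regular pattern. Cd3g encodes the gamma chain of CD3 (ENSMUSG00000002033). Its level was 1.74, 1.19 and 1.88 CPM in the C mice, 2.05, 1.74 and 1.06 in H, 0.530, 0.164 and 0.507 in CC_s and 1.99, 1.20 and 5.45 in HC. The CC_s mice were below the other 9 mice of the short arm, with 8, 4 and 8 counts, and HC replicate 3 was the highest. At the later ages Cd3g stood at 1.16 and 2.23 CPM in CC_l, 5.75 and 6.81 in HH, 2.75 and 1.65 in CCC and 11.6 and 10.6 in HHC. Both HH and both HHC mice lay above all 4 chow mice of the long arm, and the HHC mice were close to each other.

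Cd3d encodes the delta chain of CD3 (ENSMUSG00000032094). It reached 1.63, 1.69 and 0.448 CPM in C and 0.684, 2.28 and 1.25 in H, against 0.794, 1.07 and 0 in CC_s and 0.550, 0.562 and 4.46 in HC. HC replicates 1 and 2 were inside the range of CC_s, and only replicate 3 was above it. In the older mice Cd3d was at 2.56 and 2.49 CPM in CC_l, 9.58 and 6.08 in HH, 2.51 and 1.98 in CCC and 18.6 and 3.88 in HHC. The HH mice and the HHC mice were thus above their own controls.

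Cd3e encodes the epsilon chain of CD3 (chr9:44998740-45009627, minus strand, ENSMUSG00000032093). Its exons share 135 bases with the annotated genes Gm48719 and Gm48720, whose reads the counting may split. Cd3e measured 0.436, 0.397 and 0.537 CPM in C, 0.836, 0.381 and 0.576 in H, 0, 0.328 and 1.27 in CC_s and 0.344, 0.643 and 2.48 in HC, and all 4 groups overlapped. The long arm gave 0.427 and 3.27 CPM in CC_l, 2.37 and 0.999 in HH, 0.717 and 1.21 in CCC and 20.4 and 1.83 in HHC. HHC replicate 1 was more than 6 times above any other library, and CC_l replicate 2 exceeded both HH mice.

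Cd8a encodes the alpha chain of the CD8 co-receptor, which some dendritic cells of the mouse also carry (chr6:71373427-71379173, plus strand, ENSMUSG00000053977). Its counts were 22, 20 and 20 in C, 12, 40 and 0 in H, 0, 0 and 8 in CC_s and 6, 16 and 72 in HC. A count of 0 allows up to 3 counts, so these libraries did not resolve a level below 0.123 to 0.199 CPM. The 3 zeros of Cd8a lay in H and CC_s, and HC replicate 3 held 3.57 CPM. Cd8a was at 0.671 and 0.655 CPM in CC_l and 3.47 and 3.63 in HH, with both HH mice higher. It was at 1.79 and 0.988 CPM in CCC and 12.9 and 1.18 in HHC, where 1 mouse lay within the controls.

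Cd79a and Cd79b encode the alpha and beta signalling chains of the B cell receptor. Cd79a (chr7:24897381-24902197, plus strand, ENSMUSG00000003379) was at 0.327, 0.298 and 1.39 CPM in C, 0.456, 0.924 and 0.192 in H, 0.265, 0.328 and 0.127 in CC_s and 1.72, 1.20 and 1.69 in HC. The HC mice were close to each other and above all 3 CC_s mice, and this did not rest on replicate 3. The older mice held 0.915 and 2.36 CPM of Cd79a in CC_l, 4.65 and 1.54 in HH, 2.99 and 4.28 in CCC and 6.70 and 1.08 in HHC, with overlap in both comparisons.

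Cd79b (chr11:106311341-106314762, minus strand, ENSMUSG00000040592) was at 14.1, 5.56 and 3.85 CPM in C and 2.59, 7.23 and 3.55 in H, overlapping. It fell in CC_s to 1.99, 0.492 and 0.887 CPM and was at 2.34, 2.09 and 3.87 in HC, within or below the ranges of C and H. In the long arm Cd79b was at 3.05 and 5.63 CPM in CC_l, 12.5 and 12.5 in HH, 3.70 and 13.7 in CCC and 15.8 and 14.6 in HHC, and CCC replicate 2 was nearly as high as the HHC mice.

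Ms4a1 encodes CD20, a surface protein of B cells (chr19:11249675-11266241, minus strand, ENSMUSG00000024673). It was at 6.21, 1.09 and 1.07 CPM in C, 0.456, 2.34 and 0.864 in H, 0.530, 0.983 and 0.127 in CC_s and 1.10, 0.562 and 3.47 in HC, with C replicate 1 far above its group. Its level was 1.74 and 2.29 CPM in CC_l, 6.93 and 2.18 in HH, 4.06 and 8.12 in CCC and 11.1 and 3.88 in HHC. Ms4a1 was the only member whose groups overlapped in all 4 comparisons.

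Nkg7 encodes a granule protein of NK cells and cytotoxic T cells (chr7:43437073-43438249, plus strand, ENSMUSG00000004612). It was at 4.03, 0.992 and 2.51 CPM in C, 3.95, 8.48 and 1.73 in H, 0.397, 0.819 and 3.42 in CC_s and 2.47, 3.29 and 10.7 in HC, and CC_s replicate 3 was inside the range of HC. In the older mice it was at 3.60 and 3.27 CPM in CC_l, 16.2 and 15.9 in HH, 7.17 and 4.39 in CCC and 39.6 and 7.75 in HHC. Both HH mice exceeded both CC_l mice more than 4 times, and HHC replicate 2 was only slightly above the CCC mice.

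**Figure D1:**
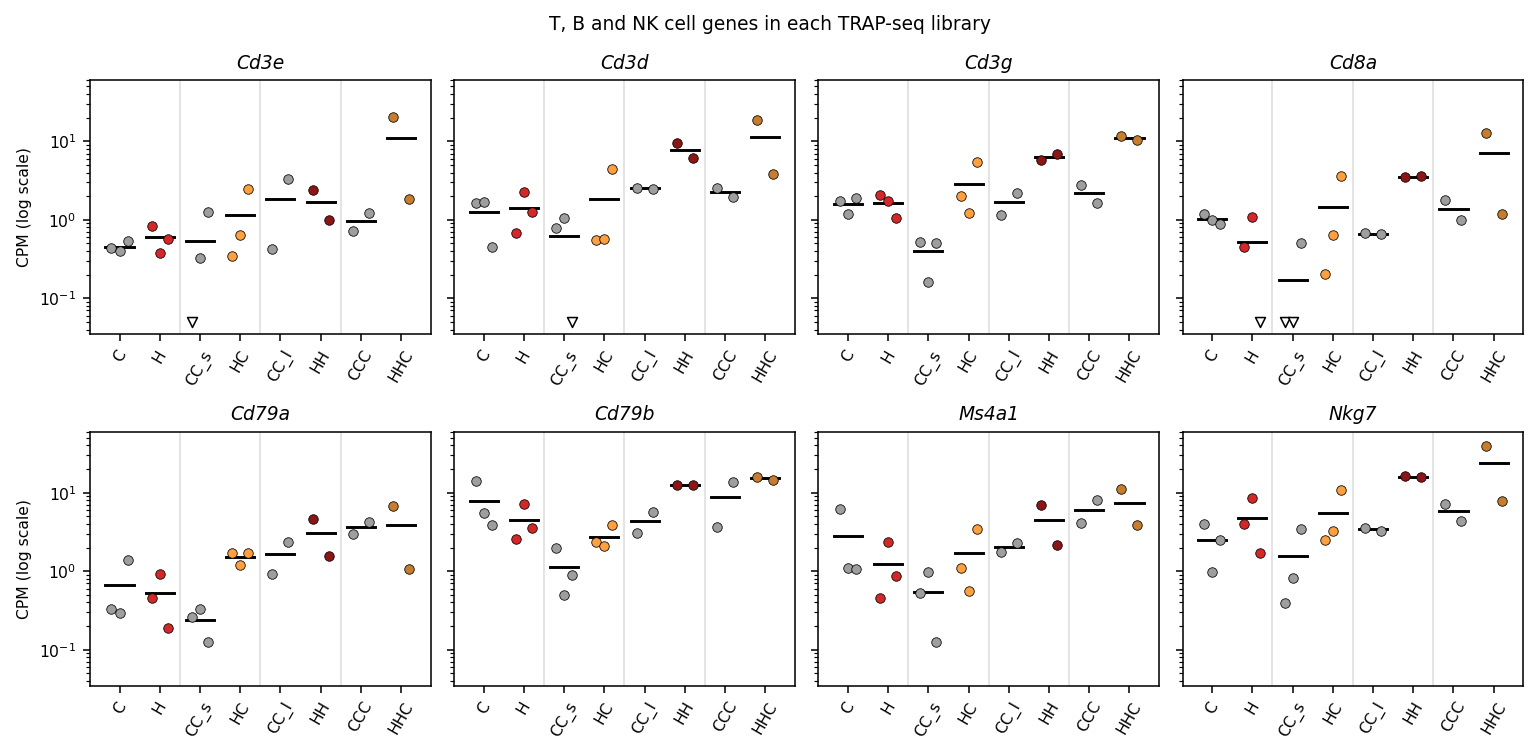
CPM (log scale, vertical axis) of each member in each of the 20 libraries, by group (horizontal axis); points are libraries, bars are group means and open triangles mark libraries with 0 counts. CC_s has the lowest mean for 7 of the 8 members, and HHC replicate 1 is the highest library in all 8 panels.

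Divided by exonic length, the mean level over the 20 libraries was 7.70 CPM per kb for Nkg7 and 4.54 for Cd79b. It was 1.74 CPM per kb for Cd3d, 1.15 for Cd79a and 0.948 for Cd3g. Cd3e, Cd8a and Ms4a1 were lowest, between 0.477 and 0.484 CPM per kb.

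After 12 weeks of HFD no member passed the test against chow. In H against C, 4 members had positive and 4 negative log2 fold changes, from -1.18 for Ms4a1 to 0.92 for Nkg7, with a median of -0.17 against -0.15 over all genes tested. None of the 8 was called by the rule used throughout, a nominal p under 0.01 together with a log2 fold change of 1 or more in size in edgeR's quasi-likelihood test, which called 6.49% of all genes in this comparison. Genes of the lists that are said to rise or fall are those called by this rule, and uncalled genes may also differ. None passed an unadjusted threshold of 0.05 either, and DESeq2 also called none. No member had all 3 H mice above all 3 C mice, which held for 13.4% of all genes. The 95% interval was -2.14 to 0.53 for Cd79b, the narrowest, and -3.82 to 1.88 for Cd8a, the widest, and each interval included a 2-fold difference in at least 1 direction. Of 10 macrophage genes, 6 rose and the list summed to between 503 and 2947 CPM in H against 199 to 353 in C, with none at 0. Of 4 endothelial genes 3 rose, with sums of 973 to 1364 CPM in H against 185 to 468 in C and none at 0. Without C replicate 1, the library with epididymal transcripts, Ms4a1 was at 0.23 and Cd79b at -0.035. Without the 4 libraries high in nuclear-retained RNA, which leaves 1 mouse in C, none of the members was called, and Cd79b and Ms4a1 had values of 0.33 and 0.31 in place of -0.81 and -1.18.

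After WL, all 8 members were higher in HC than in CC_s on average, and Cd3g passed the test. Its log2 fold change was 2.85 ± 0.70 (SE), a 7.22-fold difference, with a 95% interval of 1.38 to 4.32. In edgeR's quasi-likelihood test its p was 0.000738 and its Benjamini-Hochberg adjusted p over all genes was 0.490. The call of 1 of 8 members stands beside 1.74% of all genes called, and the members' median of 1.72 beside 0.27 for all genes. Cd79a (2.64 ± 0.94 (SE)), Cd8a (3.12 ± 1.51 (SE)) and Nkg7 (1.83 ± 0.84 (SE)) were not called. All HC mice were above all CC_s mice for Cd3g, Cd79a and Cd79b, 3 of 8 members, a pattern that 8.01% of all genes showed.

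HC replicate 3 set much of the size of these differences. Without it, Cd3g kept its call at 2.01 and Cd79a stayed at 2.56. The values without it were 1.35 for Cd8a, 0.90 for Nkg7, -0.10 for Cd3e and -0.17 for Cd3d. Cd3g was not called where the dispersion was estimated from HC and CC_s alone (2.76, 0 members called). The pan-leukocyte list (Ptprc and 9 others, none at 0) summed to between 187 and 1072 CPM in HC and 140 to 235 in CC_s, with 2 of its 10 genes called higher. The macrophage list (none at 0) summed to 468 to 1183 CPM in HC and 177 to 226 in CC_s, with 6 of 10 called higher. Of the 5 spermatid genes 3 were called higher, and the list summed to 2.89, 9.40 and 461 CPM in HC and at most 5.56 in CC_s, where each library had between 1 and 4 of the genes at 0. The part of these cells in the result was not tested, and in bulk samples more cells of a type cannot be told apart from more RNA per cell.

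**Figure D2:**
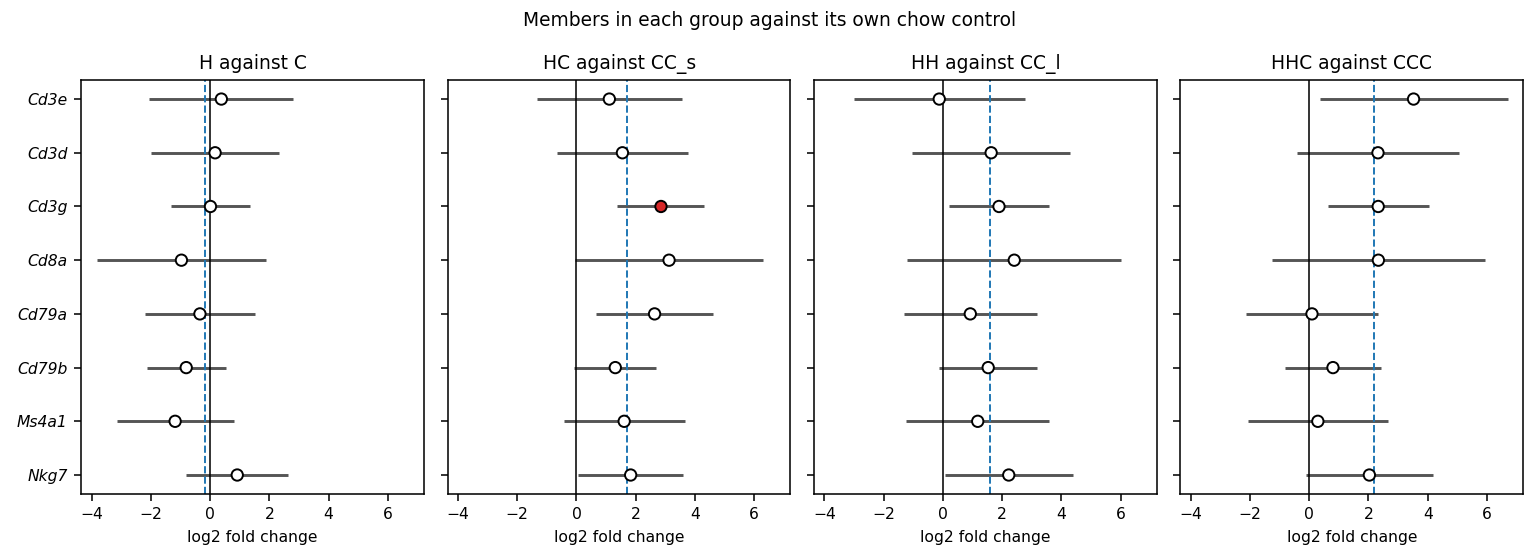
Log2 fold change (horizontal axis) of each member in each HFD or WL group against its own chow group; points are edgeR estimates, lines 95% intervals, filled points calls and dashed lines the members' median. Cd3g in HC against CC_s is the one filled point; the members' medians are -0.17, 1.72, 1.58 and 2.18 from left to right.

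The effects in HC and in H were also compared with each other, as the difference between the HC-to-CC_s and the H-to-C log2 fold changes. The difference was positive for all 8 members, with a median of 2.45 against 0.31 over all genes. The same difference equals the HC-to-H minus the CC_s-to-C log2 fold change. Over the members, the medians of these were 0.65 and -1.73, against 0.21 and -0.17 over all genes. For Cd3g they were 0.83 and -2.01, and for Cd79b -0.69 and -2.81, so low CC_s values made up much of the difference for both. Cd3g was the 1 member called, at 2.84 ± 0.93 (SE) with a 95% interval of 0.88 to 4.80, beside 2.99% of all genes. Its p was 0.00718 and its adjusted p 0.325 in the quasi-likelihood test of edgeR after Benjamini-Hochberg adjustment. This call was lost without HC replicate 3 (2.00), and likewise without C replicate 1 or 3, H replicate 2 or 3, or CC_s replicate 2, with values from 2.00 to 2.89. Without HC replicate 3 the values of Cd3e, Cd3d and Nkg7 were -0.48, -0.34 and -0.013. The 4 libraries high in nuclear-retained RNA include 2 C mice, and without them it was 2.04 and not called. All 5 spermatid genes were called higher in the same test, and their part in the result was not tested.

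No member was called between HC and H directly, whereas Cd3g and Cd79b were lower in CC_s than in C. In HC against H, no member was called (1.79% of all genes were), none passed an unadjusted threshold of 0.05 and DESeq2 called none. Their log2 fold changes ran from -0.69 for Cd79b to 1.53 for Cd79a, and Cd3g was at 0.83 ± 0.64 (SE) with a 95% interval of -0.52 to 2.17. HC mice were 8 weeks older than H mice, so age and the change of diet cannot be told apart in this contrast. Without HC replicate 3, Cd3g was at -0.017 and Cd3d at -1.33.

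Between the control groups, a comparison added after the data were seen, Cd79b fell by 2.81 ± 0.68 (SE) and Cd3g by 2.01 ± 0.68 on the log2 scale from C to CC_s. These were 2 of 8 members called, beside 2.45% of all genes. CC_s mice were older than C mice and had also changed from low-fat to standard chow, and age and chow cannot be told apart here. The adjusted p was 0.393 for both in the quasi-likelihood test of edgeR after Benjamini-Hochberg adjustment. The members' median was -1.73 against -0.17 for all genes, and Cd3e alone had a positive value (0.21). Cd3g was not called without C replicate 1 or 3 or without any 1 of the CC_s mice, with values from -2.27 to -1.62, whereas Cd79b was called with each single library left out. C replicates 1 and 2 were among the libraries high in nuclear-retained RNA, and without those 4 libraries neither gene was called, Cd79b at -1.72 and Cd3g at -2.18.

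**Figure D3:**
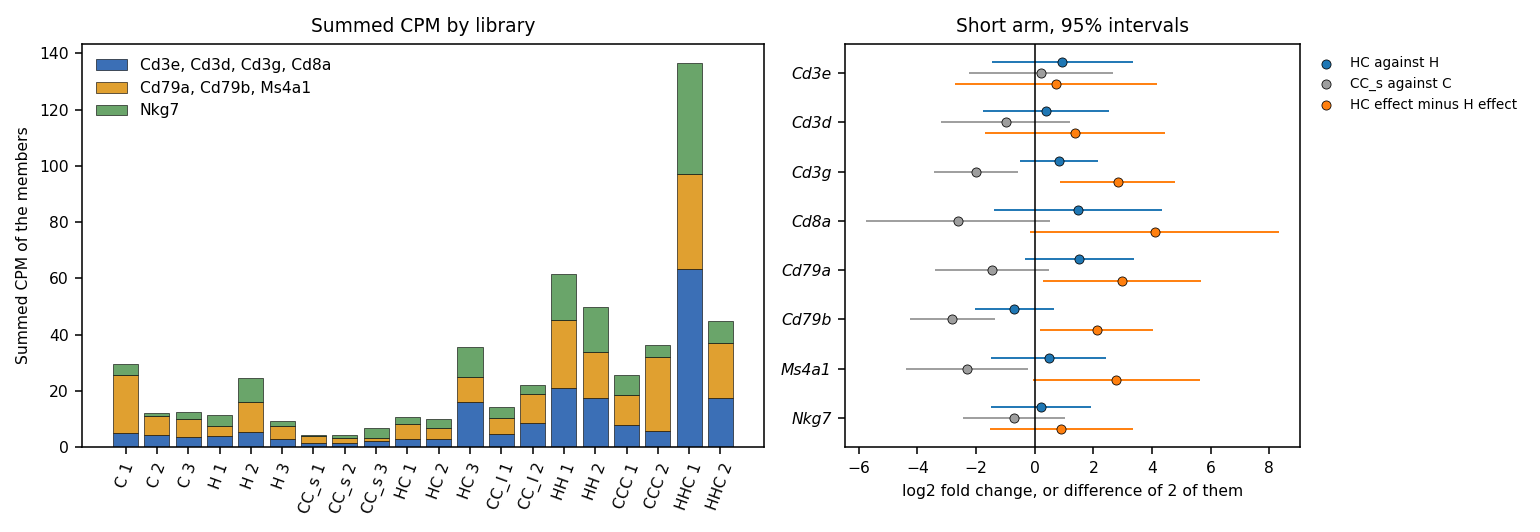
Left, summed CPM of the members (vertical axis) in each library, stacked by T cell genes, B cell genes and Nkg7; right, log2 fold changes with 95% intervals (horizontal axis) of each member for HC against H, CC_s against C and the difference between the HC and H effects. The summed CPM is 4.18 to 6.85 in CC_s, 10.2 to 35.7 in HC and 9.21 to 24.5 in H; on the right, the HC against H intervals all include 0.

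Summed over the 8 members, the level was 29.6, 12.2 and 12.6 CPM in C, 11.5, 24.5 and 9.21 in H, 4.50, 4.18 and 6.85 in CC_s and 10.7, 10.2 and 35.7 in HC. Every HC mouse was above every CC_s mouse, and HC and H overlapped. The long arm gave sums of 14.1 and 22.2 CPM in CC_l, 61.5 and 49.7 in HH, 25.7 and 36.3 in CCC and 136.6 and 44.8 in HHC, with no overlap in either comparison. No test was run on these sums.

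With 25 weeks of HFD, 7 of 8 members were higher in HH than in CC_l on average. All HH mice exceeded all CC_l mice for Cd3d, Cd3g, Cd8a, Cd79b and Nkg7, 5 of 8 members, beside 26.3% of all genes. No member was called, against 6.79% of all genes. Nkg7 (2.22 ± 1.03 (SE)) and Cd3g (1.89 ± 0.80 (SE)) passed an unadjusted threshold of 0.05, and DESeq2 called 1 member, Cd3g. Their adjusted p were 0.277 and 0.237 in the quasi-likelihood test of edgeR after Benjamini-Hochberg adjustment. The members' median was 1.58 against -0.23 over all genes, and Cd3e was at -0.12 ± 1.37 (SE). Genes of other cell types moved with these values. Of 10 macrophage genes 9 rose, and the list (none at 0) summed to between 2882 and 3922 CPM in HH against 332 to 384 in CC_l. Of the pan-leukocyte genes 6 of 10 rose, with sums of 970 to 1083 CPM against 110 to 229. All 4 endothelial genes rose (594 to 1051 CPM against 109 to 122), as did 3 of 5 adipocyte progenitor genes (2953 to 4623 CPM against 372 to 603), and none of them was at 0. The adipocyte sum was 26053 to 32062 CPM in HH and 58187 to 62967 in CC_l. The part of these cells in the values was not tested. Without CC_l replicate 1, the library with spermatid transcripts, the values were 2.29 for Nkg7 and 1.49 for Cd3g, with no member called.

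In HHC, all 8 members had positive log2 fold changes against CCC, with larger values for the T cell genes and Nkg7 than for the B cell genes. The values were 3.52 for Cd3e and between 2.03 and 2.33 for Cd3d, Cd3g, Cd8a and Nkg7, against 0.093 to 0.80 for Cd79a, Ms4a1 and Cd79b, and the difference between these sets was not tested. CCC replicate 2, high in nuclear-retained RNA, held 4.28, 13.7 and 8.12 CPM of Cd79a, Cd79b and Ms4a1. The same genes were at 2.99, 3.70 and 4.06 CPM in CCC replicate 1. Cd8a in HHC replicate 2 (1.18 CPM) lay within the CCC mice (1.79 and 0.988 CPM). No member was called, beside 3.12% of all genes. Cd3g (2.33 ± 0.81 (SE)) and Cd3e (3.52 ± 1.51 (SE)) passed an unadjusted threshold of 0.05 and DESeq2 called both. Their adjusted p were 0.320 and 0.415 in the quasi-likelihood test of edgeR after Benjamini-Hochberg adjustment. Both HHC mice exceeded both CCC mice for Cd3e, Cd3d, Cd3g, Cd79b and Nkg7, 5 of 8 members, beside 8.49% of all genes.

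HHC replicate 1 decided the size of most of these values. Without it, Cd3g stayed at 2.26, whereas Cd3e was at 0.92, Nkg7 at 0.42 and Cd79a at -1.75. That library summed to 1837 CPM of pan-leukocyte genes, against 312 in HHC replicate 2 and 337 to 404 in CCC. The macrophage list was at 646 to 1095 CPM in HHC and 688 to 734 in CCC, with no gene called. In the test of the difference between the HHC and HH effects no member was called, beside 5.84% of all genes, none passed an unadjusted threshold of 0.05 and DESeq2 called none. The largest difference was that of Cd3e, 3.64 ± 2.00 (SE) with a 95% interval of -0.57 to 7.86, whose nominal p was 0.0858 in edgeR's quasi-likelihood test and 0.0464 in DESeq2. Without HHC replicate 1 it was 1.05, without CC_l replicate 2 1.56 and with other single libraries left out 3.15 or more. For Cd3g the interval of the difference was -1.89 to 2.76.

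Other genes of T, B and NK cells were also tested. The T cell, B cell and NK lists held 74 genes besides the members, all tested. The lists were chosen with earlier results of these data known, so the shares and medians below are descriptions without a test. In H against C, 3 of them rose (4.05%, beside 3.57% of all genes) and 1 fell. In HC against CC_s 9 rose (12.2%, beside 1.57%), and in HH against CC_l 3 rose (4.05%, beside 4.92%). Called or not, 27 of 32 T cell, 14 of 22 B cell and 19 of 20 NK genes had positive values in HH. In HHC against CCC 4 rose (5.41%, beside 0.447%). The 32 T cell genes had a median of 0.33 in H on the log2 scale, and of 2.01 in HC, 1.35 in HH and 1.88 in HHC. With Trdc, at 0 in all CC_s mice, set to its bound against 3 counts per library, the HC median was 1.84. The 22 B cell genes had medians of -0.20, 1.65, 0.23 and 0.89 in the same order, and the 20 NK genes 0.93, 1.93, 2.12 and 1.01. The NK median in HH was 2.04 with Xcl1, at 0 in both CC_l mice, at its bound. Without HC replicate 3, 3 genes rose in HC in place of 9, and without HHC replicate 1, 1 rose in HHC in place of 4.

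Ccl5, a chemokine of activated T and NK cells, rose in all 4 comparisons. It was at 1.09, 1.49 and 2.33 CPM in C, 4.71, 7.26 and 5.09 in H, 0.530, 1.31 and 2.03 in CC_s and 5.09, 5.38 and 6.89 in HC. The long arm held 1.52 and 2.75 CPM in CC_l, 14.6 and 18.5 in HH, 5.62 and 1.98 in CCC and 56.8 and 14.5 in HHC. No group overlapped its own control. Its log2 fold change was 1.79 ± 0.58 (SE) in H and 2.16 ± 0.59 (SE) in HC. It was 2.96 ± 0.74 (SE) in HH and 3.23 ± 0.74 (SE) in HHC, and the value in HH alone passed an adjusted threshold (0.0465 in the quasi-likelihood test of edgeR after Benjamini-Hochberg adjustment).

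Il7r, the receptor chain for interleukin 7 that T cells and innate lymphoid cells carry, rose in H (3.28 ± 0.95 (SE)) and in HC (3.38 ± 0.96 (SE)). It was at 2.51, 1.29 and 1.16 CPM in C, 15.1, 29.9 and 3.26 in H, 1.72, 1.15 and 1.14 in CC_s and 4.54, 10.3 and 27.0 in HC. Klrb1c, the NK cell receptor NK1.1, rose in H (3.14 ± 0.97 (SE)), where H replicates 1 and 2 held 7.22 and 18.8 CPM but replicate 3 held 0.480, below all 3 C mice. Cd27, a co-stimulatory receptor whose gene overlaps Vamp1 on the opposite strand, fell in H, from 21.7, 27.3 and 6.63 CPM to 2.51, 3.64 and 4.90. The 21.7 and 27.3 CPM came from C replicates 1 and 2, which were high in nuclear-retained RNA. The other libraries high in it held 16.2 (HC replicate 3) and 40.7 CPM (CCC replicate 2), and HHC replicate 1, not among them, held 21.4. The part of these libraries in the fall was not tested.

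In HC the risers were 6 of 32 T cell, 1 of 22 B cell and 2 of 20 NK genes, Il7r and Ccl5 among them. Icos, a co-stimulatory receptor, was at 1.24, 1.28 and 3.27 CPM against 0.132, 0.164 and 0.127 in CC_s, and Trbc1, a constant segment of the T cell receptor beta chain that shares sequence with Trbc2, at 0.893, 2.49 and 3.97 against 0.265, 0.287 and 0.380. Cxcr3, a chemokine receptor of activated T cells, was at 1.31, 0.562 and 2.08 CPM against 0.132, 0.164 and 0.254, and the granzyme Gzma at 1.10, 0.964 and 2.68 against 0.132, 0.0819 and 0.380. Trdc was at 0.137, 0.402 and 0.595 CPM in HC and at 0 in CC_s, with HC close to the limit of 3 counts. The immunoglobulin gene Iglc2 was at 3.71, 3.01 and 67.3 CPM in HC against 0.662, 0.655 and 1.20 in CC_s, so that HC replicate 3 set most of its difference. In each of these 6 genes all HC mice exceeded all CC_s mice, a pattern of 8.01% of all genes. They were named because they were called in this comparison, so this separation adds no support. Lck, a T cell kinase named here after its value was seen, was the remaining riser. Sh2d1b1, an adaptor of NK cells, rose in HHC, with 1.34 and 0.969 CPM against 0 in both CCC mice.

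The 3 most abundant B cell genes were not called in any of the 4 comparisons. Ighm, the heavy chain of IgM, ranged from 54.8 to 1756 CPM and Igkc, the kappa light chain, from 10.4 to 1015 CPM. Jchain, which joins secreted immunoglobulins, was at 8.66 and 49.4 CPM in CC_l, 52.9 and 215 in HH, 23.7 and 59.4 in CCC and 95.9 and 113 in HHC. In the short arm it was at 7.81, 7.62 and 10.0 CPM in CC_s and 20.4, 11.6 and 64.8 in HC, and overlapped between C and H. All mice lay above all controls for 13.4% of all genes in H, 8.01% in HC, 26.3% in HH and 8.49% in HHC. Of the most abundant T and NK genes, Il7r, Cd27 and Ccl5 were called as given above, and Cd247, Il2rb and Klrk1 were not.

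Genes that act below the antigen receptors are shared with myeloid cells and other cells. Their list was also chosen with earlier results of these data known, so its shares are descriptions. Of 22 such genes, 3 were called higher in H (13.6%, beside 3.57% of all genes) and 1 in HC (4.55%, beside 1.57%). In HH 4 were called higher (18.2%, beside 4.92%), and in HHC 0 (beside 0.447%). None was called lower in these comparisons. Positive log2 fold changes were found for 19 of the 22 in H and in HC and for 21 in HH and in HHC. The HHC median was 0.69 against -0.057 over all genes. Lyn, a kinase of B cells and macrophages, rose from 21.2, 17.1 and 14.9 CPM in C to 59.0, 78.0 and 61.1 in H and from 10.5 and 18.3 in CC_l to 103 and 80.6 in HH. Lcp2, the adaptor SLP-76, rose in the same 2 comparisons, Csk in H, and Fyn and Bcl10 in HH. Blnk, an adaptor of the B cell receptor, rose in HC, at 5.98, 10.2 and 31.4 CPM against 2.18, 3.93 and 1.90 in CC_s. Plcg1, with the highest mean of the list, was not called in any of them.

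**Figure D4:**
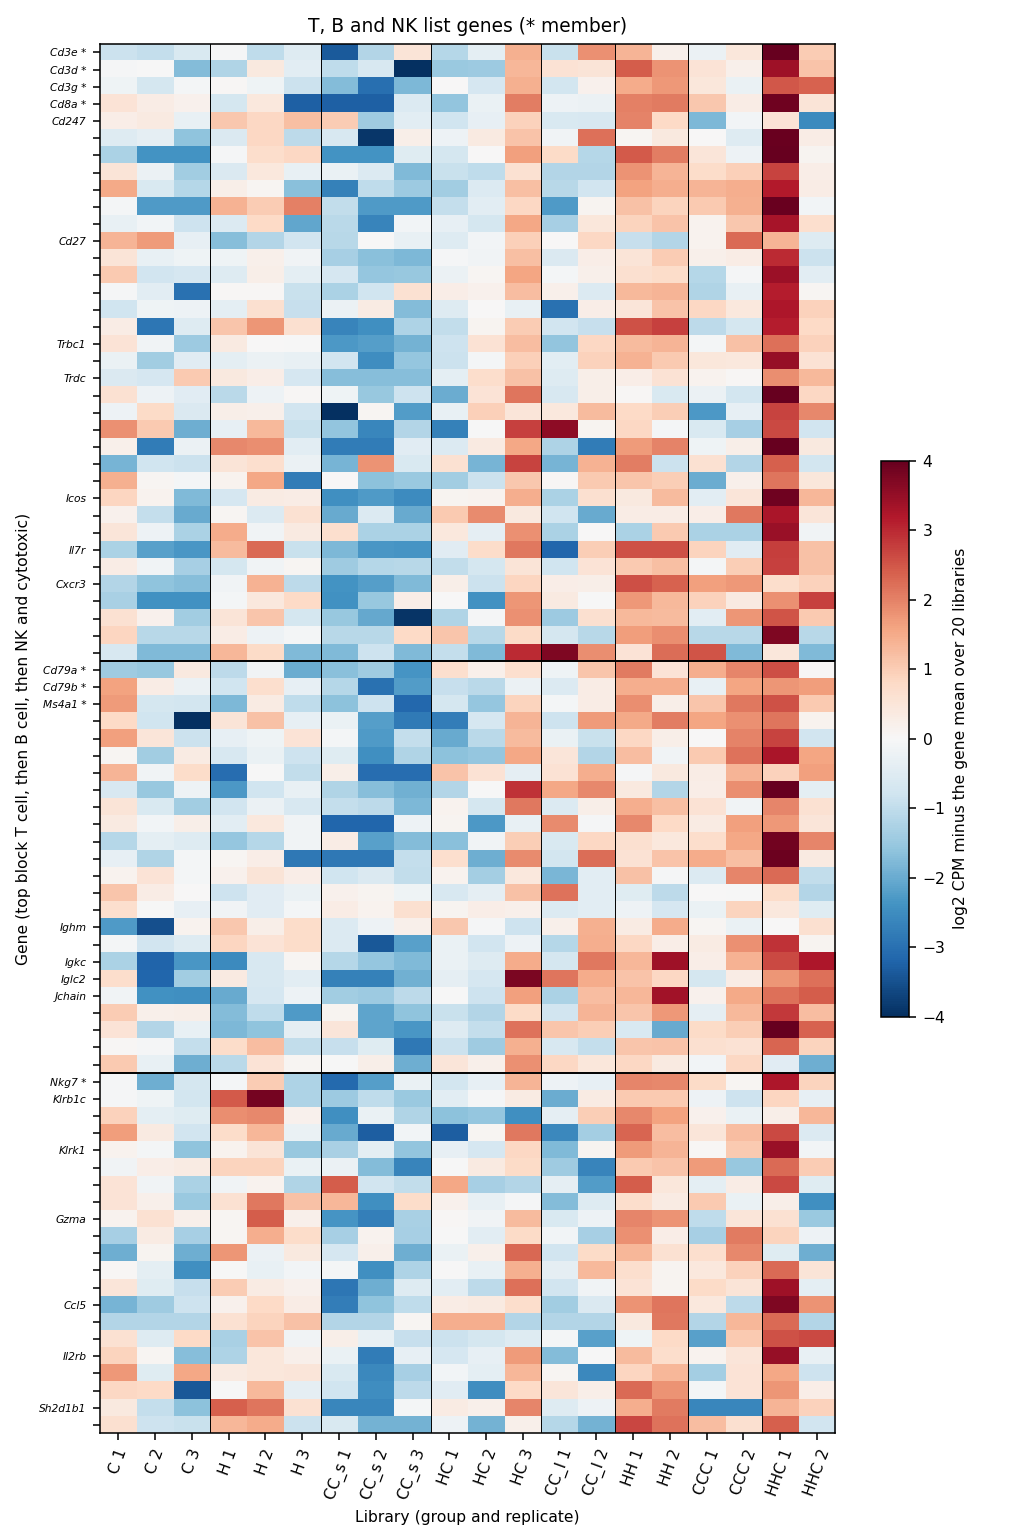
Heat map of log2 CPM minus each gene's mean over the 20 libraries, for the T cell, B cell and NK and cytotoxic lists (rows, members with an asterisk; members and genes chosen by the naming rule carry labels, and genes not reported are left out) by library (columns). HHC replicate 1, HC replicate 3 and the HH libraries are mostly red and the CC_s libraries mostly blue; the color scale is cut at -4 and 4.

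The members varied together across libraries. Over the 20 libraries, which share the group differences and the libraries that stand apart, Pearson's r of log2 CPM was between 0.476 and 0.886 for the 28 pairs of members (median 0.691). Without HC replicate 3 and HHC replicate 1 it was between 0.297 and 0.836 (median 0.604). Among 15663 tested genes with a mean of at least 1 CPM, those most like the mean of the T and NK members were Ms4a4b (r = 0.952), Trbc2 (0.908), BE692007 (0.890), Cxcr6 (0.890) and Gimap7 (0.884). Genes among those most like the mean of the B members were Ms4a4b (0.894), Cxcl13 (0.844) and Btla (0.842). Both sets are descriptions over the same 20 libraries and carry no test.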

How the data were processed

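The authors trimmed reads with Trim Galore 0.6.6, checked them with FastQC 0.11.9, aligned them to mm10 with HISAT2 2.2.1 and assigned them to genes with featureCounts of Subread 2.0.1, as named in the submitters' processing notes and the study's methods, and deposited whole-number read counts per gene without normalization. The annotation, strand setting and handling of read pairs in the counting are not given in the sources used here, so antisense and overlapping genes cannot be told apart. Symbols were found for 45143 of 46078 genes, and positions and lengths came from GENCODE vM21.

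The counts were turned into CPM, log2 fold changes and p by edgeR 4.0.16 under R 4.3.3 (filterByExpr, TMM, quasi-likelihood fit of all 20 libraries in 8 groups, 5.29 prior degrees of freedom), with the call rule, and edgeR as the tool, taken from the study's methods. Standard errors are the log2 fold change divided by the square root of F, and intervals cover 95%. All 20 sample columns were matched to a mouse by title. The fit was tested on simulated data for H against C only, with independent counts. That test does not cover the long arm, the differences between effects or the libraries that stood apart. The members and gene lists were chosen with earlier results of these data known. Sums, shares and medians over them are therefore descriptions, and no p over a list was computed. Named list genes were, per lymphocyte list, the 3 with the highest mean CPM and those called in any of the 4 comparisons with chow, at most 6 called genes by p. Alternatives were DESeq2 1.42.0, RLE scaling, no filter, the compared groups alone, a replicate block, halved counts, each library left out and an adjusted threshold of 0.05. The comparison of CC_s with C, the crossed block, the nuclear-retained RNA list and the fits without 3 or 4 libraries were chosen after seeing the data. Values of some genes are not reported here. The plots used matplotlib 3.10.9.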

Additional observations from a re-analysis of the deposited data

Results flagged for a closer look

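The HC effect and the H effect on Cd3g differed by 2.84 on the log2 scale in the test of the difference itself (nominal p 0.00718, and 0.325 as the adjusted p of edgeR's quasi-likelihood test). Cd3g was at 0.83 in HC against H and at -2.01 in CC_s against C. With HC replicate 3, or any of 5 other libraries, left out, the difference was between 2.00 and 2.89 and was no longer called. Groups of 2 or 3 mice were too small for a formal test of outlying mice, so single libraries were only left out in turn.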

How the results depend on the processing

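In the 4 comparisons with chow, 379 of 432 log2 fold changes of members under alternatives kept their direction and their side of the threshold, 16 were newly called, 1 lost its call and 36 changed sign, none of the last called in either fit. With DESeq2, 2 members were called in HC, 1 in HH and 2 in HHC, while Cd3g in H was at -0.063. RLE scaling, which moved the median of all genes by -0.15 in CC_s against C and by 0.15 in the difference between the HHC and HH effects, called 1 member in HHC and put Cd3g in H at -0.065. Without the filter on low counts 3 members were called in HC, 1 in HH and 2 in HHC, while Cd3e in HH was at 0.037. With the compared groups alone 0 were called in HC, 1 in HH, 2 in HHC and 0 in the difference between the HC and H effects, with Cd3g in H at -0.013 and Cd3e in HH at 0.12. Halved counts called 1 member in HHC. At an adjusted threshold of 0.05, 0 members were called in HC and 0 in the difference between the effects. In neither did any of the 21464 genes pass it, nor in HHC, HC against H or CC_s against C. It was passed by 455 genes in H, 445 in HH and 175 in the difference between the HHC and HH effects. The cause of these differences was not tested.

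Same-numbered mice did not deviate together (correlations of deviations from -0.28 to 0.19), so the replicate numbers were not taken as pairs. With a replicate block, Cd3g kept its call in HC at 2.78, 0 members were called in the difference between the HC and H effects, Cd79a in HHC was at -0.17 and Cd3e in CC_s against C at -0.34. With the numbers of HH and HHC crossed, 0 members were called in both, Cd3e in HH being at 0.36 and Cd79a in HHC at -0.38.

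Leaving out HC replicate 3, HHC replicate 1 and CC_l replicate 1 together gave -0.10 for Cd3e and -0.18 for Cd3d in HC, and -0.23 for Cd8a, -1.75 for Cd79a and -0.65 for Ms4a1 in HHC. In the difference between the HC and H effects 0 members were called, with Cd3e at -0.48, Cd3d at -0.35 and Nkg7 at -0.013, and in HC against H Cd3d was at -1.33 and Cd3g at -0.017. Leaving out the 4 libraries high in nuclear-retained RNA gave -0.11 for Cd3g, 0.33 for Cd79b and 0.31 for Ms4a1 in H, and -0.14 for Cd3e and -0.23 for Cd3d in HC. In the difference between the effects 0 members were then called, with Cd3e at -0.40, Cd3d at -1.98 and Nkg7 at -0.17, and in HC against H Cd3d was at -1.45 and Cd3g at -0.14.

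With single libraries left out, a group of 2 is left with 1 mouse whose spread is assumed to equal that of the others. Members called ranged from 1 to 3 in HC and from 0 to 2 in the difference between the HC and H effects. In H, Cd3d ranged from -0.38 to 0.50, Cd3g from -0.19 to 0.24, Cd79a from -1.03 to 0.75 and Ms4a1 from -2.07 to 0.23. In HC, Cd3e ranged from -0.10 to 2.68 and Cd3d from -0.17 to 2.21. In HH, Cd3e ranged from -0.96 to 1.97 and Cd79a from -0.076 to 1.75. In HHC, Cd8a ranged from -0.23 to 3.21, Cd79a from -1.75 to 0.87 and Ms4a1 from -0.65 to 0.88. In the difference between the HC and H effects, Cd3e ranged from -0.48 to 2.30, Cd3d from -0.34 to 2.04 and Nkg7 from -0.013 to 2.22, and in that between HHC and HH Cd3g from -0.10 to 0.85. In HC against H, Cd3d ranged from -1.33 to 0.94 and Cd3g from -0.017 to 1.20, and in CC_s against C Cd3e from -1.36 to 0.78. Few counts limit these genes: Cd8a had at most 3 counts in 3 libraries and Cd3e, Cd3d, Cd79a and Ms4a1 in 1 each. Cd3g had 8, 4 and 8 counts in the CC_s mice.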

Other observations

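Genes of dendritic cells, which present antigen to T cells, were measured beside the members. The 7 listed genes summed to between 8.87 and 23.2 CPM in C, 38.2 and 97.1 in H, 9.63 and 17.2 in CC_s and 29.0 and 100.4 in HC. In the long arm they summed to 11.6 and 26.1 CPM in CC_l, 87.8 and 105.7 in HH, 23.0 and 23.5 in CCC and 26.2 and 80.6 in HHC. Itgax, the integrin CD11c that macrophages of obese fat also carry, rose in H (3.33) and HC (2.94), Ccr7, the receptor that guides cells to lymphoid tissue, rose in HC (3.76) and Cd209a rose in HH (3.22), each on the log2 scale. None of the 7 was called in HHC. The chemokines of lymphoid stroma, Cxcl13, Ccl19 and Ccl21a, summed to between 6.75 and 20.1 CPM in the short arm and 13.2 and 57.0 CPM in the long arm, and none was called in any of the 4 comparisons with chow. These genes were named after their values were seen.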
